A study of Mus musculus with 4 samples.

Results

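The 10 genes described here encode the enzymes that build fatty acids from acetyl-CoA and then lengthen and desaturate them, namely *Acly*, *Acss2*, *Acaca*, *Fasn*, *Elovl6*, *Scd1*, *Scd2*, *Fads2*, *Elovl5* and *Fads1*. They were taken by name from a deposited table of 39186 genes, and all 10 were found. The set was selected on these same values, the normalized counts of the 4 samples, so the differences between the groups are given as a description without a test. RNA was sequenced from LSK cells of C57BL/6 fetal liver (E14.5 in the study's methods), with 2 *Pich*-KO and 2 *Pich*-WT samples. LSK cells are lineage-negative, Sca-1+ c-Kit+ cells, the sorted fraction that holds hematopoietic stem cells and multipotent progenitors. *Pich*, listed as *Ercc6l*, encodes a DNA translocase of mitotic cells, and the *Pich*-KO embryos carried a small TALEN-made deletion near the start of exon 2 of this X-linked gene in all tissues. The labels do not say whether the samples came from separate embryos, litters or pools, nor their sex, and all p-values then measure only the spread between these samples.

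Cytosolic fatty acid synthesis starts from acetyl-CoA, which ATP citrate lyase (ACLY) cuts from citrate and acetyl-CoA synthetase (ACSS2) makes from acetate. Acetyl-CoA carboxylase (ACACA) turns it into malonyl-CoA, and fatty acid synthase (FASN) joins these units into palmitate. ELOVL6 lengthens palmitate to stearate, the stearoyl-CoA desaturases SCD1 and SCD2 place the double bond that gives palmitoleate and oleate, and FADS2, ELOVL5 and FADS1 convert dietary linoleic and linolenic acids to long polyunsaturated fatty acids. Many of these genes are known targets of the sterol regulatory element-binding proteins (SREBPs) and of the liver X receptors (LXRs), and proliferating cells use the products for membranes.

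Coordinates are those of the deposited table, which match the GENCODE M21 annotation of the mouse build GRCm38 for 97.8% of the 39131 genes found in both, with *Scd1*, *Scd2*, *Fads1* and *Fads2* among the exceptions. On chromosome 11 *Acaca* runs from 84129672 to 84401651 on the plus strand, *Acly* from 100476353 to 100528000 on the minus strand and *Fasn* from 120805846 to 120824547 on the minus strand. The paralogs *Scd2* (44293676 to 44306864, plus strand) and *Scd1* (44394451 to 44407709, minus strand) lie 87.6 kilobases apart on chromosome 19. *Fads2* (10064164 to 10101503, minus strand) and *Fads1* (10182888 to 10196870, plus strand) point away from each other on the same chromosome, 81.4 kilobases apart. *Acss2* lies on chromosome 2 (155517948 to 155585724), *Elovl5* on chromosome 9 (77917364 to 77984519) and *Elovl6* on chromosome 3 (129532355 to 129638495), all on the plus strand. The table gives 1 value per gene and sample, so exons, introns and UTRs are not told apart.

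Promoter sequences from RefSeq, 250 bases before to 50 after a transcript's start on GRCm38.p6, were matched for 7 of the 10 genes. Those of *Fasn*, *Acaca* and *Acly* are shown because these genes had higher values in *Pich*-KO samples, and that of *Elovl5* because its values did not separate the groups. Each is written 5′ to 3′ on the strand of the gene, and capitals mark a match on either strand to a sterol regulatory element (TCACNCCAC), an E-box (CACGTG) or a CCAAT box (CCAAT).
*Fasn*, chr11:120824498-120824797, minus strand: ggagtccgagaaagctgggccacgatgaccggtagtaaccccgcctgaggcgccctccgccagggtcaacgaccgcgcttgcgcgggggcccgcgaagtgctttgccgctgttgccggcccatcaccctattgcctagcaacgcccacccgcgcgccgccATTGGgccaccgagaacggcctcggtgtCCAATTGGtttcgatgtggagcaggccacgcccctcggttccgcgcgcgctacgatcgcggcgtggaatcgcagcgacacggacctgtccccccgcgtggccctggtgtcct
*Acaca*, chr11:84195188-84195487, plus strand: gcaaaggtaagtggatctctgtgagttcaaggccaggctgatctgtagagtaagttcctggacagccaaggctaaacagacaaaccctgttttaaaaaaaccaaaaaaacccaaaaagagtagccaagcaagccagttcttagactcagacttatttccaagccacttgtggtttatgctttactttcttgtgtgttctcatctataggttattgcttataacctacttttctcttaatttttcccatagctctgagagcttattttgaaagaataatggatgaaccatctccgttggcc
*Acly*, chr11:100527951-100528250, minus strand: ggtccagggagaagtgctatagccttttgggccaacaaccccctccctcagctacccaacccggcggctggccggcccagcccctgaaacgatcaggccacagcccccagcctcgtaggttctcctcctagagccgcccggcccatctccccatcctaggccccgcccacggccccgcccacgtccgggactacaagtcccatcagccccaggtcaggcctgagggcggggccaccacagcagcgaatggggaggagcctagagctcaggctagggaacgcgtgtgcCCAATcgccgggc
*Elovl5*, chr9:77917115-77917414, plus strand: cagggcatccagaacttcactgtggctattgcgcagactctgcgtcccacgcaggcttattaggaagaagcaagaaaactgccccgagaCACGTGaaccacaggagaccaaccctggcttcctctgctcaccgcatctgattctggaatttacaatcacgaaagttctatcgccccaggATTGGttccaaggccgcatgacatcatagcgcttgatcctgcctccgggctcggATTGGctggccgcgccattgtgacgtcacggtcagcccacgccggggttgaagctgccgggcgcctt

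The *Fasn* window holds 3 CCAAT matches, of which 2 overlap by 2 letters on opposite strands between bases −62 and −55 from the start. A CCAAT match stands in 4 of the 7 windows (*Fasn*, *Acly*, *Acss2* and *Elovl5*) and in 37.4% of all 32851 windows in the table. The sterol regulatory element letters are in 0 of the 7 windows and in 1.24% of all windows, and the E-box letters are in 1 of 7 and in 7.15%. The GC box (GGGCGG, either strand, not capitalised) is in the windows of *Acly*, *Acss2* and *Fads2* and in 35.7% of all windows. The transcript start in the *Acaca* window lies 65.8 kilobases inside the gene as the table draws it, and the window's GC content is 39.7%, against 69.3% for *Fasn* and a median of 52.7% over all windows. The motif letters are a description of these windows alone.

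The 4 samples held 14703215 to 20933919 reads on genes, and values are given as read counts normalized by the authors' size factor for each sample. *Ercc6l* itself had 1142 and 1232 normalized counts in the *Pich*-KO samples, compared with 772 and 661 in the *Pich*-WT samples. Its RNA was higher in *Pich*-KO (log2 difference 0.73, SE 0.14, limma adjusted p = 0.00887), and since only a few bases are deleted, this level is no check of the labels. The defining LSK markers *Kit* (2328 to 4447), *Ly6a* (901 to 3586), *Cd34* (6226 to 11424) and *Flt3* (2478 to 4481) were present in every sample. *Pich*-WT sample 2 had 0 reads on 4 Y-linked genes, where the others had 1607 to 2848, and values without that sample are given below.

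*Scd2*, *Fasn* and *Acaca* had the largest differences of the 10 genes, all with higher values in *Pich*-KO, and *Acly* was higher by a smaller factor. *Fads1* was lower in *Pich*-KO. *Elovl6* and *Fads2* had slightly higher values in both *Pich*-KO samples, and *Acss2*, *Elovl5* and *Scd1* did not separate the groups. Against the threshold of the fit over all genes, an adjusted p of 0.05 by limma, 4 of the 10 were higher (*Scd2*, *Fasn*, *Acaca* and *Acly*) and 1 was lower (*Fads1*). Of all 32428 genes tested, 17.2% were past this threshold, 7.58% higher and 9.6% lower, and since the genes were chosen with this comparison known, nothing is read from the count. By size alone *Scd2*, *Fasn* and *Acaca* were at least 2-fold higher, as were 13.2% of all genes tested, and 0 of the 10 were at least 2-fold lower, as were 16.6%. The 10 genes ranged from −0.68 to 3.77 in log2 difference with a median of 0.42, beside 0.02 for all genes tested. In RNA from a whole sorted population, fewer cells of a type and less RNA per cell cannot be told apart.

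**Figure D1:**
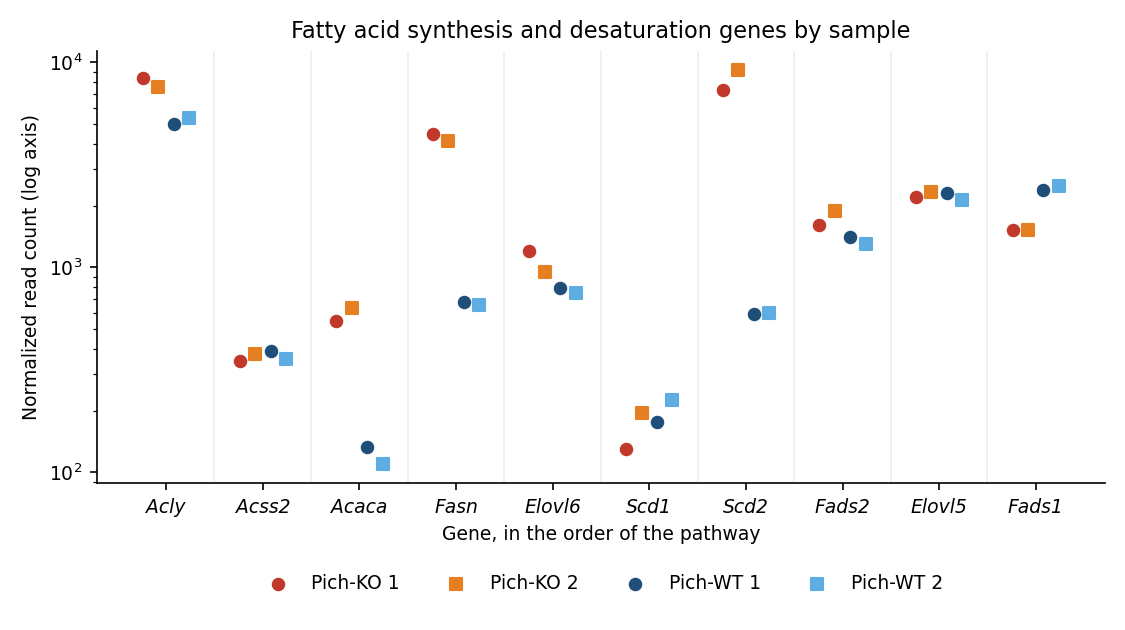
Normalized read counts of the 10 genes in each of the 4 samples, on a log axis, in the order of the pathway, with 1 point per sample (circles for replicate 1 and squares for replicate 2). Both *Pich*-KO points of *Scd2*, *Fasn* and *Acaca* stand at least 4.13-fold above both *Pich*-WT points, those of *Fads1* stand below, and those of *Acss2*, *Elovl5* and *Scd1* are mixed.

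*Acly*, the enzyme that supplies most cytosolic acetyl-CoA, had 8389 and 7581 normalized counts in *Pich*-KO, compared with 5019 and 5339 in *Pich*-WT. Both *Pich*-KO samples lay above both *Pich*-WT samples, with a mean ratio of 1.54 and a log2 difference of 0.62 (SE 0.09). It was an abundant transcript in both groups, above 98.4% of the genes tested in its lowest sample. *Acss2*, which makes acetyl-CoA from acetate, had 350 and 377 normalized counts in *Pich*-KO, compared with 388 and 358 in *Pich*-WT. The *Acss2* groups overlapped, with a log2 difference of −0.04 (SE 0.17). The 3′ part of *Acss2* overlaps *Gss* on the other strand, which had 244 to 288 normalized counts in the 4 samples, and the strand setting of the counting is not given in the sources used here.

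*Acaca*, the carboxylase that commits acetyl-CoA to fatty acid synthesis, had 549 and 630 normalized counts in *Pich*-KO, compared with 133 and 110 in *Pich*-WT. The groups were separate, and any *Pich*-KO sample was 4.13 to 5.73-fold above any *Pich*-WT sample (log2 difference 2.27, SE 0.20). *Fasn*, which makes palmitate, had 4482 and 4115 normalized counts in *Pich*-KO, compared with 681 and 657 in *Pich*-WT. The *Fasn* values of each group lay close together, and the means differed 6.43-fold (log2 difference 2.68, SE 0.11). Among all genes *Fasn* ranked 672 and 774 from the top in *Pich*-KO, and only 5492 and 5426 in *Pich*-WT.

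*Elovl6*, the elongase of palmitate, had 1205 and 943 normalized counts in *Pich*-KO, compared with 790 and 746 in *Pich*-WT. Both *Pich*-KO values were the higher ones, but *Pich*-KO sample 1 was 1.28-fold above sample 2, and the log2 difference was 0.47 (SE 0.15), not past the threshold. *Scd2*, the desaturase known as the main form of embryonic tissues and brain, had 7331 and 9129 normalized counts in *Pich*-KO, compared with 595 and 599 in *Pich*-WT. The groups lay 12.2 to 15.4-fold apart, with a mean ratio of 13.8 and a log2 difference of 3.77 (SE 0.13). This difference ranked 19 from the highest among the 32428 genes tested, and by level *Scd2* stood at ranks 5931 and 5723 among all genes in *Pich*-WT and at ranks 301 and 219 in *Pich*-KO.

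*Scd1*, the paralog that predominates in adult liver and fat, had 130 and 194 normalized counts in *Pich*-KO, compared with 175 and 224 in *Pich*-WT. The *Scd1* groups overlapped (log2 difference −0.32, SE 0.26), so these paralogs differed in how they compared between the groups. Of the reads on both genes, *Scd1* took 1.74% (95% exact binomial interval 1.44 to 2.08, counting error only) and 2.08% (1.79 to 2.42) in *Pich*-KO. In *Pich*-WT the *Scd1* share was 22.7% (20.2 to 25.5) and 27.2% (24.2 to 30.4). Of the 50-base windows in the transcripts, 4.56% for *Scd1* and 3.75% for *Scd2* also occur in another Scd gene, and reads there could be assigned to either. In *Pich*-KO, *Scd2* had 6721 and 8031 reads and *Scd1* only 119 and 171. A small misassigned part of the *Scd2* reads could thus be a large part of the *Scd1* count there, which was not tested.

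*Fads2*, the delta-6 desaturase that opens the polyunsaturated pathway, had 1616 and 1890 normalized counts in *Pich*-KO, compared with 1409 and 1303 in *Pich*-WT. Both *Pich*-KO samples lay above, by a log2 difference of 0.37 (SE 0.13) that was not past the threshold. *Elovl5*, the elongase of that pathway, had 2214 and 2320 normalized counts in *Pich*-KO, compared with 2297 and 2139 in *Pich*-WT. Its groups overlapped, with a log2 difference of 0.03 (SE 0.10).

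*Fads1*, the delta-5 desaturase that forms arachidonic and eicosapentaenoic acid, had 1516 and 1515 normalized counts in *Pich*-KO, compared with 2373 and 2487 in *Pich*-WT. It was the only one of the 10 whose *Pich*-KO samples both lay below both *Pich*-WT samples, and its mean was 1.60-fold higher in *Pich*-WT (log2 difference −0.68, SE 0.10). The ratio of *Fads2* to *Fads1* normalized counts was 1.07 and 1.25 in *Pich*-KO, compared with 0.594 and 0.524 in *Pich*-WT. This ratio of counts is not corrected for length and compares the samples, not the levels of these neighbouring desaturases.

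Across the pathway, 6 of the 10 genes had both *Pich*-KO samples above both *Pich*-WT samples, 1 had both below and 3 overlapped. Such a lack of overlap was found for 56.1% of all genes tested, with *Pich*-KO above in 28.9%. Among the 9281 genes at least as abundant as the lowest of the 10, 44.3% were past the adjusted p threshold. *Elovl6* and *Fads2* also passed with edgeR and TMM on reads recovered from the values, where 3097 of 16608 genes were higher and 3436 lower. *Fads2* did not pass with DESeq2, and neither gene passed with a pseudocount of 0.1, without the filter on the mean or with total-read scaling. Without *Pich*-WT sample 2, the log2 differences were 3.78 for *Scd2*, 2.66 for *Fasn*, 2.14 for *Acaca*, 0.67 for *Acly* and −0.65 for *Fads1*. In that fit they were 0.43 for *Elovl6*, 0.31 for *Fads2*, −0.14 for *Scd1*, −0.10 for *Acss2* and −0.02 for *Elovl5*.

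Levels of different genes were compared as RPKM, the reads per kilobase of exon scaled to the total of reads on genes in each library, with exon lengths of the GENCODE M21 annotation. In *Pich*-WT the highest was *Acly* at 61.5 ± 4.85 (SD, n = 2), followed by *Elovl5* at 39.4 ± 0.601, *Fads1* at 31.7 ± 2.16 and *Fads2* at 25.8 ± 0.522. *Elovl6* (7.48), *Scd2* (6.85), *Fasn* (3.83), *Scd1* (2.56), *Acss2* (2.30) and *Acaca* (0.445) followed, and of these neighbours only *Scd1* and *Acss2* had overlapping samples. The polyunsaturated branch and *Acly* thus stood above the synthase and the delta-9 desaturases in the *Pich*-WT samples.

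In *Pich*-KO, *Acly* at 90.9 ± 7.04 and *Scd2* at 90.5 ± 13.4 RPKM led the order and overlapped. *Elovl5* (38.7), *Fads2* (32.0), *Fasn* (23.6), *Fads1* (18.9) and *Elovl6* (10.04) came next, each separate from its neighbours. *Acss2* (2.15 ± 0.101), *Acaca* (2.07 ± 0.190) and *Scd1* (1.99 ± 0.549) were lowest and could not be ordered beyond their spread. *Scd2* stood at rank 6 of the 10 in *Pich*-WT and rank 2 in *Pich*-KO, and *Fasn* at ranks 7 and 5. With the lengths given in the table, which are shorter for *Fads2* (1508 in place of 3295 bases) and *Fads1* (3456 in place of 4812), *Fads2* had 69.8 RPKM in *Pich*-KO and 56.3 in *Pich*-WT. By coding length alone, *Scd2* led in *Pich*-KO and *Fasn* stood at rank 7, and in *Pich*-WT *Elovl5* led, followed by *Fads1* and then *Acly* at rank 3.

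**Figure D2:**
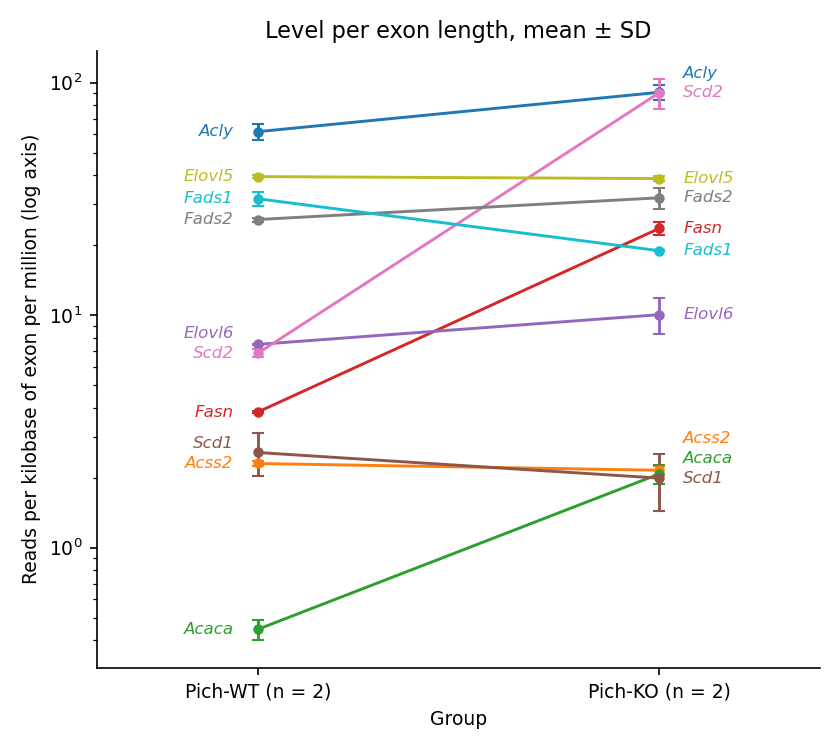
Mean level of each gene in RPKM on a log axis, in *Pich*-WT (left) and *Pich*-KO (right), with bars of 1 SD over 2 samples. *Scd2*, *Fasn* and *Acaca* have the steep lines, from 6.85 to 90.5, 3.83 to 23.6 and 0.445 to 2.07, and *Fads1* goes from 31.7 to 18.9.

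As RPM, the reads of a gene scaled to the total of reads on genes without division by length, the 10 genes together took 1676 and 1717 in *Pich*-KO, compared with 847 and 897 in *Pich*-WT, a ratio of 1.95. *Scd2* alone made up 26.4% and 31.8% of these reads in *Pich*-KO and 4.29% in each *Pich*-WT sample. The difference of means in *Scd2* was 55.4% of the summed difference, that of *Fasn* was 26.2% and that of *Acly* was 18.8%, while *Fads1* contributed −7.44%. Without *Scd2* and *Fasn* the other 8 genes held 964 and 924 RPM in *Pich*-KO, compared with 769 and 816 in *Pich*-WT, a ratio of 1.19.

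By step, *Acly*, *Acss2*, *Acaca* and *Fasn* summed to 831 and 760 RPM in *Pich*-KO, compared with 380 and 415 in *Pich*-WT. *Elovl6*, *Scd1* and *Scd2* summed to 523 and 614 against 95.3 and 101, a ratio of 5.80. The polyunsaturated branch of *Fads1*, *Fads2* and *Elovl5* summed to 323 and 343 against 372 and 381, so its *Pich*-KO samples were the lower ones. *Scd2* made up 84.6% and 88.9% of the *Elovl6*, *Scd1* and *Scd2* sum in *Pich*-KO, compared with 38.1% and 38.2% in *Pich*-WT. In the polyunsaturated sum only *Fads1* was lower without overlap, while *Fads2* lay above in both *Pich*-KO samples and *Elovl5* overlapped. Between the elongases, *Elovl5* took 64.8% (95% exact interval 63.1 to 66.4) and 71.1% (69.4 to 72.7) of the reads of *Elovl5* and *Elovl6* in *Pich*-KO, and 74.4% (73.0 to 75.8) and 74.1% (72.5 to 75.7) in *Pich*-WT.

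**Figure D3:**
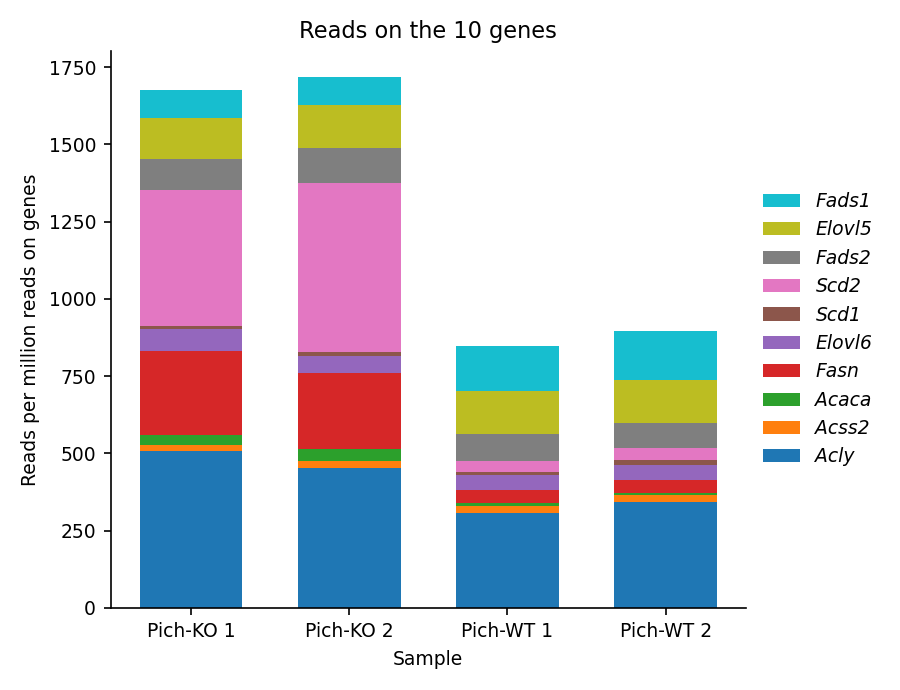
Stacked bars of the RPM taken by each of the 10 genes in each sample, relative to all reads on genes, with the start of the pathway at the bottom. The *Pich*-KO stacks reach 1676 and 1717 and the *Pich*-WT stacks 847 and 897, and the *Scd2* and *Fasn* layers account for most of the difference.

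The known regulators of these genes were read from a list of 25, of which 24 could be tested. By limma's adjusted p over all genes 5 of them were higher and 3 lower, 33.3% beside the background of 17.2% over all genes and of 44.3% over the genes at least as abundant as the lowest of the 10, with a median log2 difference of 0.06. By edgeR and TMM 11 of the 23 regulators it kept passed, where 3097 of all 16608 genes were higher and 3436 lower. Fewer regulators passed when either *Pich*-WT sample was left out, as was so over all genes. *Srebf1*, which encodes the SREBP that drives fatty acid synthesis, had 3803 and 4367 normalized counts in *Pich*-KO, compared with 3152 and 3217 in *Pich*-WT. It was 1.28-fold higher (log2 difference 0.36, SE 0.10, limma adjusted p = 0.0492), just past the threshold, and did not pass with a pseudocount of 0.1, without the filter, with total-read scaling or with DESeq2. *Srebf2*, the SREBP of sterol synthesis, had 4325 and 3676 against 4101 and 4359, and the groups overlapped (log2 difference −0.08, SE 0.11).

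The SREBP chaperone *Scap* had 1852 and 1832 normalized counts in *Pich*-KO, compared with 1522 and 1688 in *Pich*-WT (log2 difference 0.20, SE 0.11, limma adjusted p = 0.297). *Insig1*, which retains SREBPs in the endoplasmic reticulum and is itself an SREBP target, had 823 and 1014 against 687 and 569, with a log2 difference of 0.55 (SE 0.17) and an adjusted p of 0.0616 by limma. Its *Pich*-KO samples were both higher without passing the threshold. *Insig2* had 329 and 234 against 452 and 332 (log2 difference −0.48, SE 0.24, limma adjusted p = 0.235). *Mbtps2*, the site-2 protease that releases SREBPs, was 1.84-fold higher in *Pich*-KO, with 600 and 566 normalized counts against 299 and 334 (log2 difference 0.88, SE 0.16, limma adjusted p = 0.00717).

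*Nr1h3*, the gene of LXR alpha and known to be abundant in macrophages, had 60.0 and 69.3 normalized counts in *Pich*-KO, compared with 1107 and 1186 in *Pich*-WT. It was 17.7-fold higher in *Pich*-WT (log2 difference −4.13, SE 0.18, limma adjusted p = 2.22e-05). Its partner *Rxra* was 5.58-fold higher in *Pich*-WT, with 70.9 and 60.2 against 355 and 377 (log2 difference −2.47, SE 0.22, limma adjusted p = 0.000256). *Nr1h2*, the gene of LXR beta, had 1614 and 1829 against 2088 and 1794, and its groups overlapped (log2 difference −0.17, SE 0.13). The LXR genes thus differed from each other in these samples, and *Nr1h3* moved with the macrophage markers whose values are given below, whose part in this result was not tested.

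*Mlxipl*, the gene of the carbohydrate-responsive factor ChREBP, had 17.5 and 12.5 normalized counts against 25.8 and 31 (log2 difference −0.89, SE 0.43). *Ch25h*, an interferon-inducible hydroxylase whose product 25-hydroxycholesterol blocks SREBP processing, had 10.9 and 4.55 in *Pich*-KO, compared with 23.4 and 38 in *Pich*-WT (log2 difference −1.93, SE 0.56, limma adjusted p = 0.0533). Both stood lower in each *Pich*-KO sample without passing the threshold. *Thrsp* had at most 1 read in any sample and was not tested. *Prkaa1*, a catalytic subunit of AMP-activated kinase, which phosphorylates and inhibits ACACA, was 2.85-fold higher in *Pich*-KO, with 712 and 730 against 285 and 220 (log2 difference 1.52, SE 0.18, limma adjusted p = 0.000977).

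Of 17 genes that supply acetyl-CoA, malonyl-CoA and NADPH, 6 were higher and 4 lower by limma, 58.8% beside the same backgrounds of 17.2% and 44.3%. By edgeR and TMM 11 of the 17 passed, beside the edgeR counts over all genes given above. Fewer passed when either *Pich*-WT sample was left out, as was so over all genes. The higher ones included the pyruvate dehydrogenase subunits *Dlat* (2623 and 2850 normalized counts in *Pich*-KO, 1901 and 1744 in *Pich*-WT, limma adjusted p = 0.00765) and *Pdha1* (3190 and 3287 against 2323 and 2193, limma adjusted p = 0.00818). The *Pdha1* means differed 1.43-fold, a smaller ratio than for *Acly*. The lower ones included pyruvate carboxylase, *Pcx* (215 and 256 against 541 and 540, log2 difference −1.20, SE 0.17, limma adjusted p = 0.00247). They also included *Mlycd*, which degrades malonyl-CoA (373 and 265 against 626 and 577, log2 difference −0.93, SE 0.20, limma adjusted p = 0.0147).

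Mitochondria make fatty acids by a separate set of enzymes, and 2 of 6 such genes were higher and 0 lower by limma (33.3% beside 17.2% and 44.3%), with a median log2 difference of 0.43. They were the acyl carrier protein *Ndufab1* (2139 and 2416 against 1363 and 1415, limma adjusted p = 0.00412) and *Mecr* (850 and 1009 against 683 and 557, limma adjusted p = 0.0444). *Mecr* did not pass with a pseudocount of 0.1, without the filter or with total-read scaling. By edgeR and TMM 4 of the 6 passed, beside the edgeR counts over all genes given above. Fewer passed when either *Pich*-WT sample was left out, as was so over all genes.

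Among 21 other elongation and desaturation genes, 1 was higher and 4 lower (23.8% beside 17.2% and 44.3%), with a median log2 difference of −0.10. By edgeR and TMM 8 of the 15 genes it kept passed, beside the edgeR counts over all genes given above. Fewer passed when either *Pich*-WT sample was left out, as was so over all genes. The higher one was *Cyb5b*, an electron donor cytochrome of the outer mitochondrial membrane, with 5280 and 5151 normalized counts against 3325 and 3294 (log2 difference 0.66, SE 0.09, limma adjusted p = 0.00152). *Hacd4*, an acyl-CoA dehydratase, was 5.48-fold higher in *Pich*-WT, with 180 and 171 against 925 and 996 (limma adjusted p = 7.47e-05). *Degs1*, the dihydroceramide desaturase, was 3.20-fold higher in *Pich*-WT, with 1624 and 1603 against 5961 and 4354 (limma adjusted p = 0.000265). Of the other Scd genes, *Scd3* had at most 14.1 and *Scd4* at most 7.03 normalized counts in any sample, and both overlapped between the groups. *Scd3* and *Scd4* were chosen for naming after their values were seen.

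Of 22 genes of sterol synthesis, the sister pathway under SREBP control, 3 were higher and 1 lower, 18.2% beside the backgrounds of 17.2% and 44.3%. The median log2 difference was 0.44, and 16 had both *Pich*-KO samples above both *Pich*-WT samples (28.9% of all genes did). *Idi1* (580 and 557 normalized counts in *Pich*-KO against 395 and 370, limma adjusted p = 0.0374) was 1.49-fold higher but did not pass without the filter or with total-read scaling. In each of these settings 2 other genes of the list were still higher. The sterol carrier *Stard4* was lower, with 1022 and 899 against 1493 and 1359 (log2 difference −0.57, SE 0.13, limma adjusted p = 0.0197). By edgeR and TMM 7 of the 22 passed with all 4 samples, beside the edgeR counts over all genes given above. Fewer sterol genes passed when either *Pich*-WT sample was left out, as was so over all genes.

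Genes that use the products moved in both directions, and for these lists the largest difference in each direction is given, except for a lower gene in oxidation. By edgeR and TMM the calls were 9 of 18 for activation, 9 of 29 for oxidation and 8 of 17 for storage. For phospholipids they were 11 of 23, for uptake 8 of 15 and for eicosanoids 7 of 16. They stand beside the edgeR counts over all genes given above. When either *Pich*-WT sample was left out, fewer passed in each list except uptake, and fewer over all genes. The shares past limma's threshold were 42.1% for activation, 30.4% for storage and 37.5% for phospholipids, beside 17.2% of all genes and 44.3% of the more abundant ones. Of 19 acyl-CoA activation and hydrolysis genes 3 were higher and 5 lower, and *Acsl4*, the ligase that prefers arachidonic acid, had 420 and 490 normalized counts in *Pich*-KO, compared with 131 and 105 in *Pich*-WT (log2 difference 1.94, SE 0.21, limma adjusted p = 0.000611). The transport protein gene *Slc27a6* was lower at 9.82 and 5.68 against 49.2 and 28 (limma adjusted p = 0.023), though not without the filter. Of 23 genes of triacylglycerol synthesis and lipid droplets 3 were higher and 4 lower, led by *Gpam*, the acyltransferase of the first step (591 and 469 against 206 and 246, limma adjusted p = 0.00387), and the lipase *Mgll* (43.6 and 61.4 against 399 and 334, limma adjusted p = 0.000308). Of 24 phospholipid genes 2 were higher and 7 lower, led by *Lpcat4* (474 and 431 against 67.2 and 156, limma adjusted p = 0.00502) and *Agpat3* (113 and 94.3 against 1200 and 1027, limma adjusted p = 4.27e-05).

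Of 30 oxidation genes 2 were higher and 7 lower. The shares past the threshold were 30% for oxidation, 50% for uptake and 33.3% for eicosanoids, beside the same 17.2% and 44.3%. The peroxisomal bifunctional enzyme *Ehhadh* had 103 and 88.7 in *Pich*-KO, compared with 11.7 and 3 in *Pich*-WT (log2 difference 3.76, SE 0.57, limma adjusted p = 0.00316). Lipid uptake and binding had the lowest median of the lists, a log2 difference of −1.53 over 16 genes, of which 2 were higher and 6 lower. The scavenger receptor *Cd36* was 22.9-fold higher in *Pich*-WT (184 and 95.5 against 3632 and 2775, limma adjusted p = 7.17e-05). *Mfsd2a*, a lysophospholipid transporter, was 4.38-fold higher in *Pich*-KO (107 and 64.8 against 24.2 and 15, limma adjusted p = 0.0105). Of 18 genes that release polyunsaturated fatty acids and make eicosanoids 2 were higher and 4 lower, led by *Ptgs2* (122 and 152 against 9.38 and 25, limma adjusted p = 0.00305) and thromboxane synthase, *Tbxas1* (132 and 87.5 against 1198 and 1112, limma adjusted p = 7.47e-05).

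**Figure D4:**
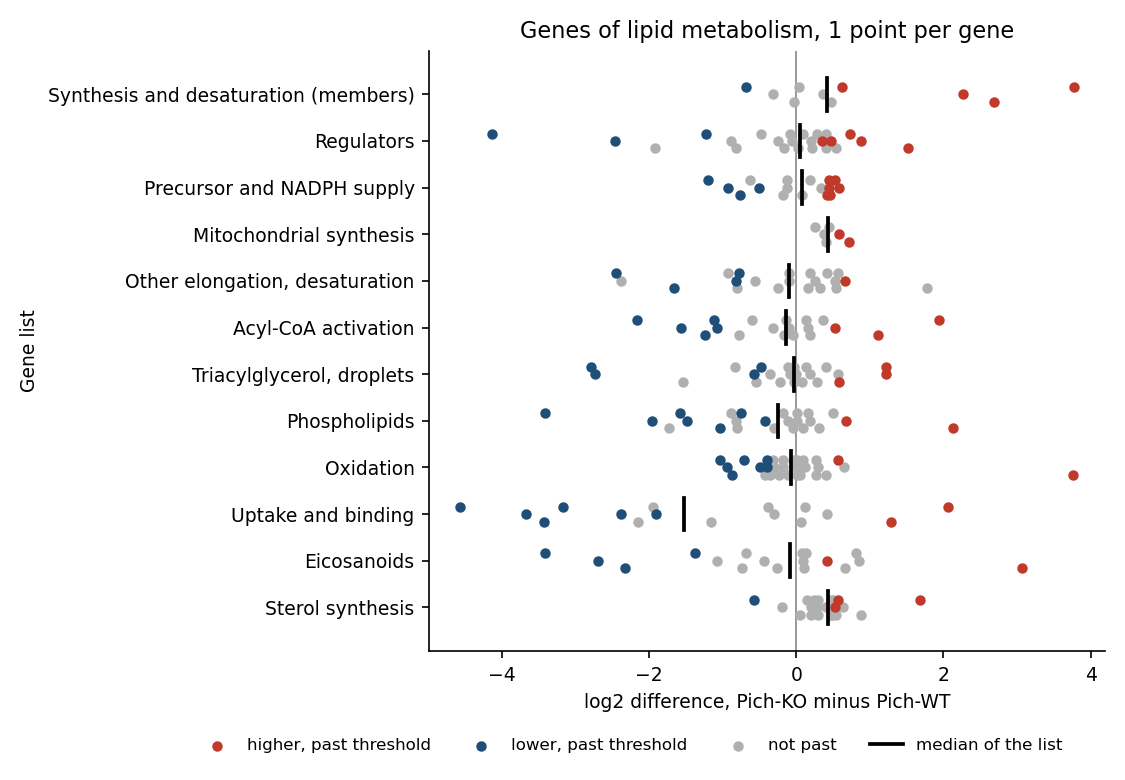
Log2 difference of each gene between *Pich*-KO and *Pich*-WT (1 point per gene), for the 10 genes in the top row and 11 lists of lipid metabolism, with the median of each list as a black bar and colour for genes past limma's adjusted p of 0.05. The 10 genes and the sterol and mitochondrial synthesis lists have medians of 0.42, 0.44 and 0.43, and the uptake list has the lowest, −1.53.

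Markers of other cell types moved with the groups beside these results, where 7.58% of all genes were higher and 9.6% lower (22.8% and 21.5% of the more abundant ones). Macrophage markers were lower for 19 of 20 genes, with summed normalized counts of 15318 to 16922 in *Pich*-KO and 97409 to 102299 in *Pich*-WT, and of the defining *Adgre1*, *Csf1r*, *Cd68* and *Mrc1* none was at 0. Endothelial markers were lower for 10 of 10 (3957 to 5804 against 27190 to 39042), erythroid markers for 11 of 15 (38207 to 41510 against 146628 to 206412), megakaryocyte markers for 3 of 8 (1110 to 1148 against 3132 to 5106) and hepatoblast markers for 7 of 16 (3723 to 4326 against 5834 to 6490). The antigens of the lineage stain in the study's methods were CD4, CD8, Gr-1, B220 and Ter119. Ter119 marks erythroid cells, whose marker list was lower too, and Gr-1 marks granulocytes. None of these antigens is a macrophage or endothelial marker of these lists, and how the stain bears on these sums was not tested.

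Granulocyte markers were higher for 3 of 11, namely the defining *Mpo*, *Prtn3* and *Ctsg* but not *Elane*, with sums of 64580 to 121905 in *Pich*-KO, compared with 16869 to 19635 in *Pich*-WT. The median log2 difference of that list was −0.16, and the other 8 genes did not pass. Mast cell and basophil markers were higher for 2 of 7 (572 to 812 against 144 to 183), stromal markers for 1 of 9 with 1 lower (751 to 1251 against 432 to 689), and lymphoid markers for 1 of 15 with 2 lower (2391 to 2437 against 2645 to 2683). The LSK and stem cell list had 3 higher and 5 lower of 15, with overlapping sums of 25872 to 38717 and 31849 to 34136. Of the defining markers, *Gp1bb* (megakaryocyte) was at 0 reads in 1 sample of each group, as was *Cma1* (mast cell), and *Tpsb2* (mast cell) was at 0 in 1 *Pich*-KO sample. The part of these shifts in the values of the 10 fatty acid genes and of the lists was not tested.

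**Figure D5:**
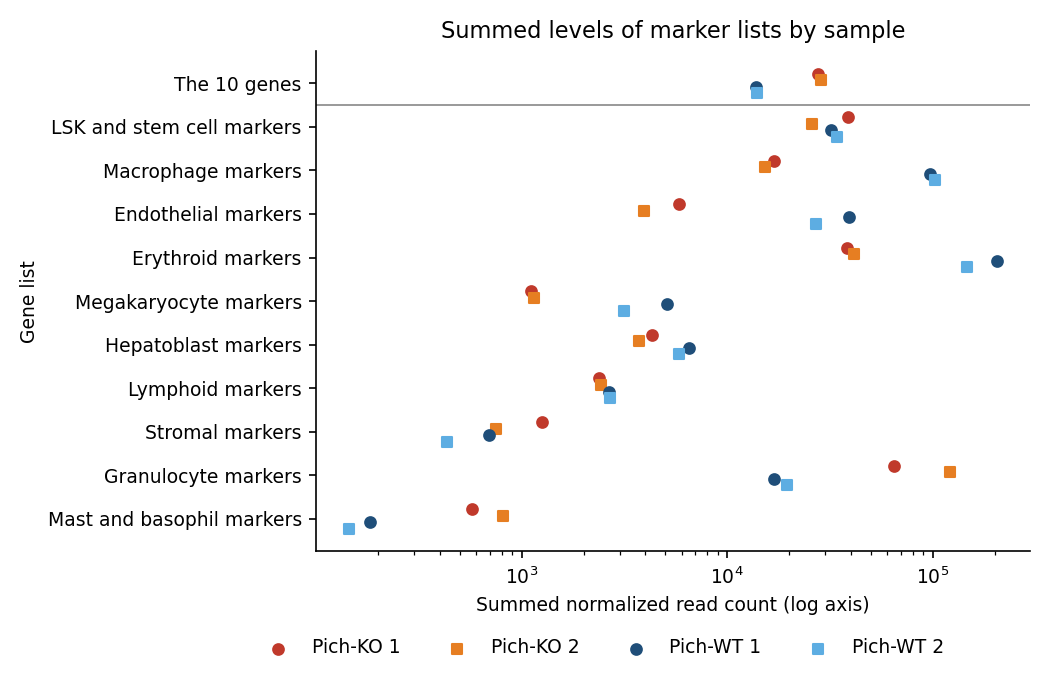
Summed normalized read counts of the 10 fatty acid genes and of 10 marker lists in each sample, on a log axis, with 1 point per sample. The macrophage, endothelial and erythroid sums are lower in both *Pich*-KO samples, the granulocyte sum, in which 3 of 11 genes were past the threshold, is higher in both, and the sums of the LSK list overlap.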

How the data were processed

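RNA from sorted fetal liver LSK cells (2 *Pich*-KO and 2 *Pich*-WT samples) was made into libraries with a TruSeq RNA kit from total RNA. Per the submitters' processing notes, reads were aligned with Bowtie 0.12.2, with mm8 and mm9 named as builds, although the coordinates in the table are those of GRCm38. The counting tool and its strand setting are not given in the sources used here. The deposited table gives for each of 39186 genes a normalized signal per sample, which the authors made by dividing read counts by a size factor, so that each value is a whole multiple of what 1 read is worth. The table also holds the authors' own fold changes and p-values between the groups, which were not used, and a gene length in bases as the authors deposited it.

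Whole reads were recovered for 100% of values within a tolerance of 0.02, and gave the depth of 14703215 to 20933919 reads per sample. Intervals of shares (exact binomial, 95%) cover counting error only. Replicates differed beyond sampling noise (chi-square per degree of freedom 17.7 for *Pich*-KO and 9.54 for *Pich*-WT), so each counted as a sample. Genes with a mean of at least 1 (32428) were tested on log2(value + 1), a scale that understates changes of low genes, with limma 3.58.1 in R 4.3.3 (lmFit and eBayes with a variance trend), with Benjamini-Hochberg adjustment over all genes and a threshold of 0.05. An exact two-sided permutation test of 2 against 2 samples cannot go below 0.333 and was not used. Tested on simulated data, the script recovered 60% of 2-fold and 99% of 4-fold changes. A change of 2-fold or less could thus be missed. Alternatives were a pseudocount of 0.1, no filter, at least 10 reads in every sample, no variance trend, a replicate block, total-read scaling, other gene lengths, each sample left out, edgeR 4.0.16 and DESeq2 1.42.0 on the recovered reads. edgeR with 1 sample left out and the ranking by deposited lengths were added after the data were seen.

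The members and the gene lists were chosen with earlier results of these data known. Named genes were the 10 members, *Ercc6l*, 10 main regulators and, of every other lipid list, at most the 2 largest differences in each direction past the threshold with groups that did not overlap, of which the text gives at most 1 in each direction for lists of genes that use fatty acids. Some genes that the rule names are not reported here. Marker lists were described by their sums. The list names *Hsd17b8*, *Cidea*, *Cpt1b*, *Ahsp* and *Mcpt4* were not matched in the table. Samples were grouped by their labels. The deviations of samples that share a replicate number from their group means had a correlation of 0.0409 over 13924 genes, so numbers were not used as pairs. Exon lengths and coordinates were compared with GENCODE M21, and promoters came from RefSeq.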

Additional observations from a re-analysis of the deposited data

How the results depend on the processing

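Of the 10 fatty acid genes, *Scd2*, *Fasn*, *Acaca*, *Acly*, *Elovl6*, *Fads2* and *Fads1* kept the direction of their log2 differences under all alternatives run. In settings with all 4 samples other than the fit without a variance trend, 5 to 7 of the 10 passed the threshold. The main fit passed 5 of them, with 2459 of all 32428 genes higher and 3113 lower. Settings that passed 7 also passed a larger part of all genes. The counts were 2937 higher and 3135 lower of 13924 with at least 10 reads. With edgeR on 16608 genes they were 3097 and 3436 by TMM and 3165 and 3394 by upper-quartile scaling. The fit without a variance trend called 0 of all genes in each direction, 0 of the 10 and 0 in each of the 11 lists. In that fit 7377 genes had an unadjusted p under 0.05 by limma. With limma and a sample left out, 1 residual degree of freedom remained within the samples of the fit and 0 genes passed (5757 to 8599 at an unadjusted p under 0.05), and the lone sample was assumed to vary like the other group. Over both tools the counts with a sample left out were 0 to 3685 higher and 0 to 3917 lower for all genes and 0 to 6 for the 10. For the lists they were 0 to 14 (regulators), 0 to 12 (supply and oxidation), 0 to 5 (mitochondrial synthesis), 0 to 8 (elongation and desaturation, and storage), 0 to 10 (activation and uptake), 0 to 13 (phospholipids) and 0 to 9 (eicosanoids and sterols). The *Scd1* share ranged from 1.74 to 2.08% in *Pich*-KO and 22.7 to 27.2% in *Pich*-WT, and the *Elovl5* share from 64.8 to 71.1% and 74.1 to 74.4%. Without *Pich*-WT sample 2, edgeR made fewer calls in the sterol list than with all samples, as it did over all genes. With all samples that list had 7 calls with at least 10 reads or edgeR and TMM, 9 with upper-quartile scaling and 8 with DESeq2. The elongation and desaturation list had 8 with at least 10 reads, TMM or upper-quartile scaling. Mitochondrial synthesis had 1 with a pseudocount of 0.1, no filter or total reads and 4 with either edgeR scaling, and without the filter the regulators and storage lists had 4 each. *Scd2* made up 29.1% of the summed RPKM of the 10 genes in *Pich*-KO, 44.0% by coding length, 25.4% by deposited length and 26.5 to 31.6% with a sample left out.

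With the replicate number as a block, a numbering not known to pair the samples, 3122 genes were higher and 3874 lower. The sterol and the elongation and desaturation lists then had 9 calls each. The main fit called 2459 and 3113. Depth limits the genes at few reads, such as *Thrsp*, *Scd3* and *Scd4*, which were not measurable beyond counting error.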
